A study of Mus musculus with 17 samples.

Results

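The genes described here are the ligand gene Igf1, the receptor genes Igf1r and Igf2r, and the binding protein genes Igfbp2, Igfbp3, Igfbp4, Igfbp5, Igfbp6 and Igfbp7. They were taken by symbol, with no use of their values, and are 9 of the 55421 genes in the count table. All 9 were also among the 10481 genes kept for testing, which had more than 10 CPM (counts scaled to a common library total) in at least 2 libraries. Igfbp2 passed that filter through 3 libraries and Igfbp5 through 4. Igfbp6 passed it through the 4 libraries of bleomycin-treated Ephb4 control mice and 1 library of bleomycin-treated Ephb4 CKO mice. Passing is therefore not itself a result for these genes. The cultures came from the lungs of 17 mice that were all Ephb4f/f; Col1a2-CreERT2, that is, the controls also carried the floxed Ephb4 alleles and the Cre transgene. At 4 weeks of age they received corn oil (Ephb4 control) or 4-hydroxytamoxifen on 5 days (Ephb4 CKO), and at 6 weeks bleomycin at 1.2 U/kg or PBS into the trachea. Lungs were taken on day 14, and the cells were grown in DMEM with serum, passaged 1 time and lysed for total RNA-Seq, with 1 library per mouse (4 control PBS, 4 control bleomycin, 5 CKO PBS and 4 CKO bleomycin mice). The Col1a2 promoter drives Cre, which limits deletion to cells that use that promoter, and the drug 4-hydroxytamoxifen and the loss of Ephb4 cannot be told apart in this design.

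IGF1 is a small secreted growth factor that binds IGF1R, a receptor tyrosine kinase that signals through the insulin receptor substrates to PI3K and AKT. IGF2R has no kinase and clears IGF2 and carries enzymes tagged with mannose 6-phosphate to lysosomes, while the binding proteins hold IGFs in the extracellular space, where proteases such as PAPP-A set them free. In the lung both macrophages and mesenchymal cells are known sources of IGF1, and several binding proteins are known products of fibroblasts.

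Total counts per library ranged from 66540022 to 120554468 (median 93075927). Ephb4, the targeted gene, was at 39.0 ± 21.6 CPM in control bleomycin mice and 9.77 ± 3.76 CPM in CKO bleomycin mice (SD, n = 4 each), and the fitted log2 difference was -2.0 (SE 0.79, adjusted p = 0.220), where SE is the standard error and the p is adjusted over all genes tested. Between CKO and control mice given PBS it was -0.73 (SE 0.72, adjusted p = 1.00), and the ranges overlapped each time. Although the cells are labelled primary fibroblasts, the macrophage gene Lyz2 was at 875 CPM or more in all 17 libraries, and Col1a1, the main collagen gene of fibroblasts, ranged from 0.365 to 873 CPM in control PBS, from 661 to 2269 CPM in control bleomycin, from 2.49 to 151 CPM in CKO PBS and from 1.56 to 159 CPM in CKO bleomycin libraries. A fibroblast score, the mean log2 CPM over 13 marker genes, lay between 8.03 and 8.85 in the control bleomycin libraries and between -0.04 and 7.95 in the 3 other groups. In RNA from whole cultures, fewer cells of a type and less transcript per cell cannot be told apart. Xist and Y-linked genes went against the recorded sex in 3 libraries, control bleomycin mouse 2 and CKO bleomycin mice 1 and 2, so results are also given without these sex-discordant libraries. The table's columns fall into sorted runs of 8 and 9. The labels do not say which library was in which sequencing pool, so these runs are an order of columns and not a labelled batch.

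Igfbp2 and Igfbp5 are neighbours on chromosome 1 of GRCm38, at chr1:72824503-72852474 on the forward strand and chr1:72857932-72874884 on the reverse strand, so that their 3′ ends face each other across 5458 bp. Igfbp6 lies at chr15:102144362-102149511 on the forward strand. The 250 bases before the RefSeq start (GRCm38.p6, read on the gene's strand) are shown for these 3 genes (for Igfbp2, the first of 2 RefSeq starts), the neighbours because different libraries were high for each, and Igfbp6 because it separated the control bleomycin from the control PBS libraries. Capitals mark 4 motifs on either strand. The letters TATAAA are those of the box near the start of many tightly placed promoters. SP family factors are known to bind GGGCGG. Factors of the FOS and JUN families bind TGANTCA, and the NF-Y complex binds CCAAT.
Igfbp2 promoter, chr1:72824230-72824479: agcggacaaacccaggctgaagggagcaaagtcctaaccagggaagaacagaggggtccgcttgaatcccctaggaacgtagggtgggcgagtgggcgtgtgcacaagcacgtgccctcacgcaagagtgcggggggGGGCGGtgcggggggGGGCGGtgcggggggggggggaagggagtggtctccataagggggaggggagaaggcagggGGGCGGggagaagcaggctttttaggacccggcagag
Igfbp5 promoter, chr1:72874866-72875115: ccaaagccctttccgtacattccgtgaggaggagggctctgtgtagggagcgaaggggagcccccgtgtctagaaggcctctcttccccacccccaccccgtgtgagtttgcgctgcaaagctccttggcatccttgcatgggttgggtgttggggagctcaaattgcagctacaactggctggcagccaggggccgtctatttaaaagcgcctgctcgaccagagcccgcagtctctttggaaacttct
Igfbp6 promoter, chr15:102143936-102144185: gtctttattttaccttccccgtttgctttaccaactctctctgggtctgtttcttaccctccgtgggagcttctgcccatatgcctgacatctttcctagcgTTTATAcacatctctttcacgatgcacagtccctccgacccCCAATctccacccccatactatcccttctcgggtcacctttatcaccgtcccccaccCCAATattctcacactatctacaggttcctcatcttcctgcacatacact
The Igfbp2 window held 3 copies of GGGCGG, the Igfbp6 window held 1 TATAAA and 2 CCAAT, and the Igfbp5 window held none of the 4 motifs. The TATAAA of Igfbp6 lay on the strand opposite to the gene, shown as TTTATA, and not near the start, so it is not placed like that box. Marked motifs did not overlap each other in these windows. Of 32851 mouse promoter windows of this length, 12.4% held TATAAA, 32.7% held GGGCGG, 6.75% held TGANTCA and 33.8% held CCAAT. GC content was 67.2% for Igfbp2, 58.8% for Igfbp5 and 49.6% for Igfbp6, against a median of 52.4% over all windows.

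Levels differed widely between the 9 genes. Per kb of annotated exon, the median over the 17 libraries was 215 CPM for Igfbp7, 27.0 for Igf2r, 5.68 for Igf1, 5.14 for Igfbp3, 3.17 for Igfbp4, 1.59 for Igf1r, 1.09 for Igfbp6, 0.232 for Igfbp5 and 0.122 for Igfbp2. Each gene's range over the libraries overlapped that of its neighbour in this order. Spread between libraries also differed by gene: the highest library was 7.18 times the lowest for Igf2r, 14.1 times for Igf1 and 758 times for Igfbp3.

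**Figure D1:**
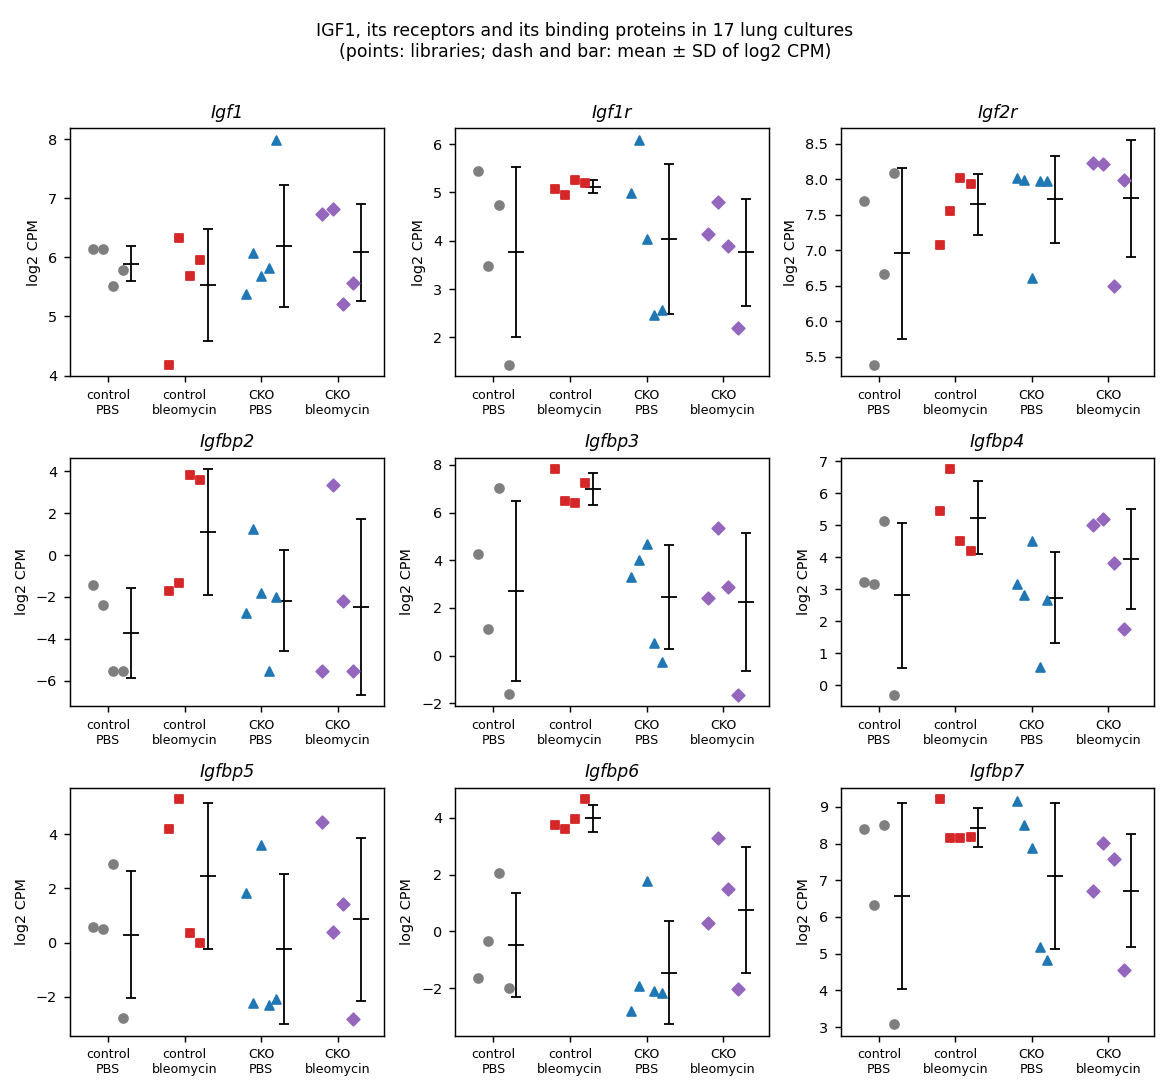
Level of each of the 9 genes in the 17 libraries, as log2 CPM (prior count of 2) on the vertical axis, with 1 point per library in each of the 4 groups and the mean ± SD of log2 CPM beside them. The control bleomycin libraries lie close together and high for Igfbp3 and Igfbp6, while Igf1 and Igf2r overlap across the 4 groups and Igfbp2 and Igfbp5 each split within a group.

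The 2 main comparisons, bleomycin against PBS in control mice and CKO against control mice after bleomycin, share the control bleomycin libraries. In the first, 8 of the 9 genes had a positive log2 fold change and Igf1 a negative one, with a median of 1.82 against -0.06 over all genes tested. None of the 9 passed an adjusted p of 0.05 in edgeR's quasi-likelihood test, where 0% of the 10481 genes did. At an unadjusted p of 0.05, Igfbp2 and Igfbp6 passed, both with higher values after bleomycin, beside 14.3% of all genes. Both had passed the filter on low values through bleomycin libraries alone, so their counts here are no support for a difference. The ranges of the groups were apart for 1 gene, Igfbp6, beside 5.72% of all genes apart in that direction. Fewer libraries can only add genes to this count, which was 3 without control PBS mouse 1 (Igf1r, Igfbp2 and Igfbp6), 3 without control PBS mouse 3 (Igfbp3, Igfbp4 and Igfbp6), 2 without control bleomycin mouse 1 (Igfbp2 and Igfbp6), and 1 without the sex-discordant library. Within the first run of columns it was 4 and within the second 3, with 2 libraries a group. No share of all genes is given for these smaller sets, so their counts do not set the 9 genes apart from others.

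In Ephb4 CKO versus control mice after bleomycin, 7 of the 9 genes had a negative log2 fold change and Igf1 and Igf2r a positive one. Their median was -1.20, against 0.01 over all genes tested. No gene of the 9 passed an adjusted p of 0.05 in edgeR (0% of all genes did) and none passed an unadjusted p of 0.05, which 20.2% of all genes did. Without CKO bleomycin mouse 2, Igfbp2, Igfbp3 and Igfbp6 passed the unadjusted p, beside 2375 of the 10481 genes. Igfbp2 and Igfbp6 had passed the filter through bleomycin libraries alone, so they are no support here. Igf1r, Igfbp3, Igfbp6 and Igfbp7 were lower in every CKO bleomycin library than in every control bleomycin library, 4 of 9 genes beside 12.2% of all genes. Of these, Igfbp6 had passed the filter through the 4 control bleomycin libraries and 1 CKO bleomycin library, so it was kept through the group where it is high, and the other 3 genes were above the filter's 10 CPM (before TMM scaling) in at least 5 further libraries. Without the 3 sex-discordant libraries Igfbp2 and Igfbp4 were apart as well (6 genes), and within the first run of columns 7 genes were. Leaving out libraries can only raise such counts, and no share of all genes is given beside them. DESeq2 also called 0 of the 9 in both comparisons, where it called 166 of the 10481 genes for bleomycin in controls and 399 for CKO versus control after bleomycin. limma voom called 0 of the 9 and 0 of all genes in both. DESeq2 with the column runs as a covariate called Igfbp6 after bleomycin in controls (4.21, adjusted p = 0.0147), where it called 231 of the 10481 genes. limma voom with sample quality weights called Igf1r, Igfbp3 and Igfbp6 in the comparison of CKO with control after bleomycin, where it called 4651 of the 10481 genes.

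**Figure D2:**
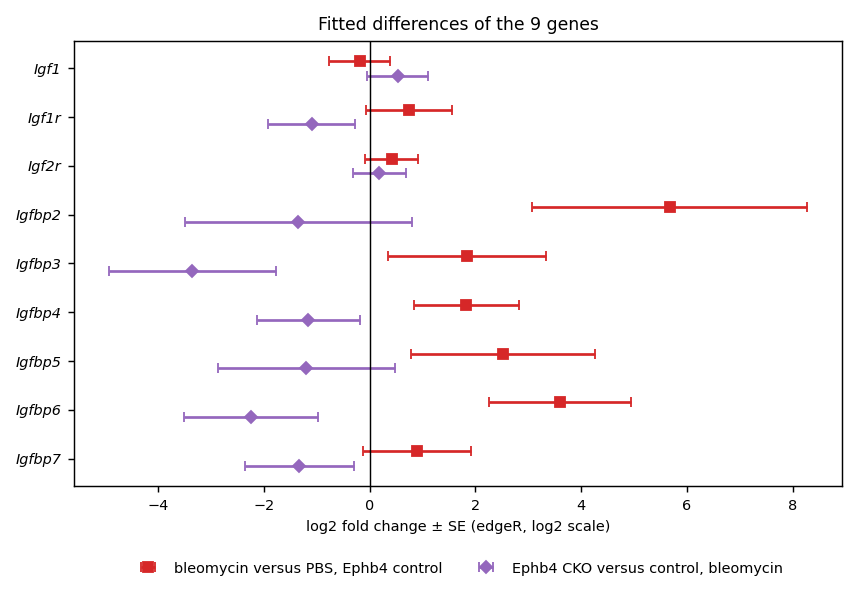
Fitted log2 fold change of the 9 genes with its standard error (horizontal axis, edgeR) for bleomycin against PBS in controls and for CKO against control after bleomycin, which share the control bleomycin libraries. The binding protein genes lie to the right of 0 in the first comparison and to the left in the second, from 5.67 for Igfbp2 to -3.35 for Igfbp3, and none passed an adjusted p of 0.05.

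Igf1 (ENSMUSG00000020053, chr10:87858265-87937042, forward strand), the ligand, was above 10 CPM in all 17 libraries, and with all libraries its groups overlapped in every comparison. Its level was 70.3, 70.2, 45.6 and 55.4 CPM in control PBS mice 1 to 4 and 18.1, 79.9, 51.3 and 62.1 CPM in control bleomycin mice 1 to 4. In CKO mice it was 41.7, 67, 51.6, 56.2 and 254 CPM after PBS and 107, 113, 36.9 and 47.5 CPM after bleomycin, in the order of the mouse numbers. CKO PBS mouse 5 stood far above the other libraries, and control bleomycin mouse 1 was the lowest. The log2 fold change was -0.19 (SE 0.57, adjusted p = 0.889) for bleomycin in controls and 0.52 (SE 0.58, adjusted p = 0.590) for CKO versus control after bleomycin. The first became 0.13 without control bleomycin mouse 1, and the second became -0.09 without the 3 sex-discordant libraries, so no direction can be given for Igf1.

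The libraries highest in Igf1 were also highest in markers of interstitial macrophages, the C1q-producing macrophages of the lung tissue. The score of 10 such markers was highest in CKO PBS mouse 5 (7.04), control bleomycin mouse 2 (6.24), CKO bleomycin mouse 1 (5.97) and CKO bleomycin mouse 2 (5.25), the 4 libraries with the highest Igf1. It was lowest in control bleomycin mouse 1 (1.61), the library with the lowest Igf1, where the general macrophage score was also lowest at 4.66. The libraries between did not all follow. Control bleomycin mouse 3 had an interstitial score of 5.18 with 51.3 CPM of Igf1. Control PBS mice 1 and 2 had lower interstitial scores, 3.44 and 3.05, with more Igf1, 70.3 and 70.2 CPM. All 10 of these markers were kept, and their summed level ranged from 416 to 978 CPM in control PBS, 86.4 to 4159 CPM in control bleomycin, 178 to 8106 CPM in CKO PBS and 930.3 to 6665 CPM in CKO bleomycin libraries. Their part in the Igf1 values was not tested. An antisense gene, Igf1os, overlaps Igf1 and had 0 to 28 counts per library, against 2153 to 20254 for Igf1.

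Igf1r (ENSMUSG00000005533, chr7:67952827-68233668, forward strand) encodes the receptor kinase through which IGF1 acts. It was at 43.2, 11.1, 26.7 and 2.66 CPM in control PBS mice and at 33.5, 30.9, 38.4 and 36.5 CPM in control bleomycin mice. In CKO mice it was at 31.7, 68.2, 16.5, 5.51 and 5.94 CPM after PBS and at 17.6, 28.0, 14.8 and 4.56 CPM after bleomycin. The control bleomycin libraries were close together, 34.8 ± 3.30 CPM (SD, n = 4), and all lay above the CKO bleomycin libraries at 16.2 ± 9.63 CPM (SD, n = 4), whereas the PBS libraries ran from the lowest value of all to the highest. The log2 fold change of CKO versus control after bleomycin was -1.10 (SE 0.82, adjusted p = 0.423). An exact permutation test of log2 CPM (2-sided) gave p = 0.0286, the smallest that 4 against 4 mice allow. Groups that do not overlap always give this p, so it restates that the groups were apart and adds no support. For bleomycin in controls the log2 fold change was 0.74 (SE 0.82, adjusted p = 0.668), with overlapping groups, and 0.37 to 1.37 with 1 library left out.

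Igf2r (ENSMUSG00000023830, chr17:12682406-12769664, reverse strand), the receptor for IGF2 and for mannose 6-phosphate, had the smallest ratio of highest to lowest library of the 9. It was at 206, 41.6, 101 and 272 CPM in control PBS and 135, 188, 260.2 and 245 CPM in control bleomycin mice. After PBS it was at 259, 255, 98.0, 251 and 252 CPM in CKO mice, and after bleomycin at 299, 296, 90.4 and 254 CPM. Of the 17 libraries, 4 were at 101 CPM or below and the others between 135 and 299 CPM, and the low libraries came from 3 of the 4 groups, all from the first run of columns. Log2 fold changes were 0.41 (SE 0.50, adjusted p = 0.694) for bleomycin in controls and 0.18 (SE 0.50, adjusted p = 0.842) for CKO versus control after bleomycin, the latter -0.34 without the 3 sex-discordant libraries. Among these low libraries, control PBS mouse 2 (41.6 CPM), CKO PBS mouse 3 (98.0 CPM) and CKO bleomycin mouse 3 (90.4 CPM) had the 3 highest alveolar macrophage scores, 7.92, 7.59 and 7.86, while the remaining low library, control PBS mouse 3, had a score of 5.26. All 10 alveolar macrophage markers were kept, and their summed level ranged from 1401 to 8164 CPM in control PBS, 194 to 1149 CPM in control bleomycin, 193 to 5122 CPM in CKO PBS and 162 to 5762 CPM in CKO bleomycin libraries. Their part in the Igf2r values was not tested. The antisense gene Airn overlaps Igf2r and had 112 to 262 counts per library.

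Igfbp3 (ENSMUSG00000020427, chr11:7206086-7213923, reverse strand), the gene of the main IGF carrier in blood, had the widest range of the 8 genes detected in every library. It was at 19.2, 2.17, 132 and 0.304 CPM in control PBS mice 1 to 4 and at 226, 89.6, 84.8 and 151 CPM in control bleomycin mice 1 to 4. CKO mice had 9.67, 16.1, 25.5, 1.43 and 0.816 CPM after PBS and 5.36, 40.8, 7.38 and 0.298 CPM after bleomycin. All control bleomycin libraries were above all CKO libraries of either treatment, and control PBS mouse 3 was the only PBS library at their level. After bleomycin the means were 138 ± 65.8 CPM in control and 13.5 ± 18.5 CPM in CKO mice (SD, n = 4 each), a fitted level 10.2 times lower in CKO mice. This log2 fold change, -3.35 (SE 1.58, adjusted p = 0.248), was the largest of the 9 genes in that comparison. The exact permutation test gave p = 0.0286, which again only restates that the groups were apart. The log2 fold change was -5.37 without the 3 sex-discordant libraries and -4.99 without CKO bleomycin mouse 2. For bleomycin in controls it was 1.84 (SE 1.49, adjusted p = 0.555), and it was 4.28 without control PBS mouse 3.

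Igfbp6 (ENSMUSG00000023046) encodes a binding protein that prefers IGF2 over IGF1. It was near 0 in most PBS cultures, 0.299, 0.764, 4.13 and 0.233 CPM in control PBS and 0.124, 0.241, 3.38, 0.213 and 0.201 CPM in CKO PBS mice. After bleomycin it was at 13.3, 12.0, 15.4 and 25.3 CPM in control mice and 1.21, 9.63, 2.82 and 0.226 CPM in CKO mice. The 4 control bleomycin libraries were thus the 4 highest of the 17, and CKO bleomycin mouse 2 was the next. Control means were 16.5 ± 6.03 CPM after bleomycin and 1.36 ± 1.87 CPM after PBS (SD, n = 4 each), a fitted 12.1-fold difference with a log2 fold change of 3.6 (SE 1.34, adjusted p = 0.320). Without control PBS mouse 3 it was 5.27, and the PBS mean fell to 0.432 CPM. For CKO versus control after bleomycin the log2 fold change was -2.25 (SE 1.26, adjusted p = 0.301), and it was -3.54 without CKO bleomycin mouse 2. Without the 3 sex-discordant libraries, the log2 fold changes were 3.73 and -3.60. Igfbp6 passed the filter through the 4 control bleomycin libraries, the high side of both comparisons, and 1 CKO bleomycin library. These differences are therefore given as a description.

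Igfbp7 (ENSMUSG00000036256, chr5:77349240-77408041, reverse strand), which encodes a secreted relative that binds IGFs weakly, was the most abundant of the 9 per length. It was at 336, 79.7, 364 and 8.39 CPM in control PBS and 596, 286, 284 and 291 CPM in control bleomycin mice. CKO mice had 575, 364, 237, 36.4 and 28.5 CPM after PBS and 105, 259, 191 and 23.5 CPM after bleomycin. Control bleomycin mice 2 to 4 lay within 284 to 291 CPM and control bleomycin mouse 1 at 596 CPM, all above the CKO bleomycin libraries, while PBS libraries of both genotypes spread from 8.39 to 575 CPM. CKO versus control after bleomycin gave a log2 fold change of -1.33 (SE 1.03, adjusted p = 0.439), and bleomycin in controls gave 0.89 (SE 1.02, adjusted p = 0.680). The exact permutation p of the former was 0.0286, which only restates that the groups were apart. The gene lies in a stretch that Polr2b overlaps on the other strand. Polr2b had 4157 to 9783 counts per library, and strand-specific reads were used in the counting.

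Igfbp4 (ENSMUSG00000017493, chr11:99041244-99054392, forward strand) encodes the binding protein that PAPP-A cleaves in the presence of IGF. It was at 9.31, 8.95, 35.2 and 0.792 CPM in control PBS and 43.6, 107, 22.7 and 18.4 CPM in control bleomycin mice. CKO mice had 8.92, 6.96, 22.7, 1.45 and 6.25 CPM after PBS and 31.9, 36.4, 14.0 and 3.39 CPM after bleomycin. Control bleomycin mouse 2 was the highest library and the groups overlapped each time. Its log2 fold change was 1.82 (SE 0.99, adjusted p = 0.404) for bleomycin in controls, where control PBS mouse 3 alone lay within the bleomycin range, and -1.16 (SE 0.97, adjusted p = 0.476) for CKO versus control after bleomycin. Both rest on single libraries: without control bleomycin mouse 2 they were 1.06 and -0.40, and without control PBS mouse 3 the first was 2.96.

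Igfbp2 (ENSMUSG00000039323) and Igfbp5 (ENSMUSG00000026185), whose promoters are shown above, both encode IGF binding proteins that also attach to matrix or cell surfaces. Igfbp2 was at 0.285, 0.377, 14.2 and 11.9 CPM in control bleomycin mice 1 to 4 and 0, 10.3, 0.199 and 0 CPM in CKO bleomycin mice 1 to 4. In PBS cultures it was at 0.353, 0.171, 0 and 0 CPM in control and 0.124, 2.32, 0.265, 0 and 0.226 CPM in CKO mice. It was thus above 10 CPM only in control bleomycin mice 3 and 4 and CKO bleomycin mouse 2, with 1856, 1137 and 1080 counts, and 5 libraries had no count.

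Igfbp5 was high in other libraries. It was at 18.3, 39.7, 1.25 and 0.960 CPM in control bleomycin mice 1 to 4 and 22.1, 1.30, 2.68 and 0.119 CPM in CKO bleomycin mice 1 to 4. After PBS it was at 1.45, 1.39, 7.52 and 0.122 CPM in control mice and 3.51, 0.189, 12.2, 0.179 and 0.213 CPM in CKO mice. The 4 libraries above 10 CPM, control bleomycin mice 1 and 2, CKO PBS mouse 3 and CKO bleomycin mouse 1, all had Igfbp2 below 0.4 CPM, and the 3 libraries high in Igfbp2 had 0.960 to 1.30 CPM of Igfbp5. No library was above 10 CPM for both genes, but with so few high libraries for each gene this is a description and was not tested. For bleomycin in controls the log2 fold changes were 5.67 (SE 2.61, adjusted p = 0.347) for Igfbp2, with an unadjusted p of 0.0458, and 2.52 (SE 1.74, adjusted p = 0.497) for Igfbp5. For CKO versus control after bleomycin they were -1.35 (SE 2.15, adjusted p = 0.718) and -1.20 (SE 1.67, adjusted p = 0.677). Each rests on few libraries: without CKO bleomycin mouse 2 the second value of Igfbp2 was -6.65, and without control bleomycin mouse 2 that of Igfbp5 was -0.06. With 1 library left out, the first value ranged from 4.99 to 6.86 for Igfbp2 and from 1.38 to 3.98 for Igfbp5.

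**Figure D3:**
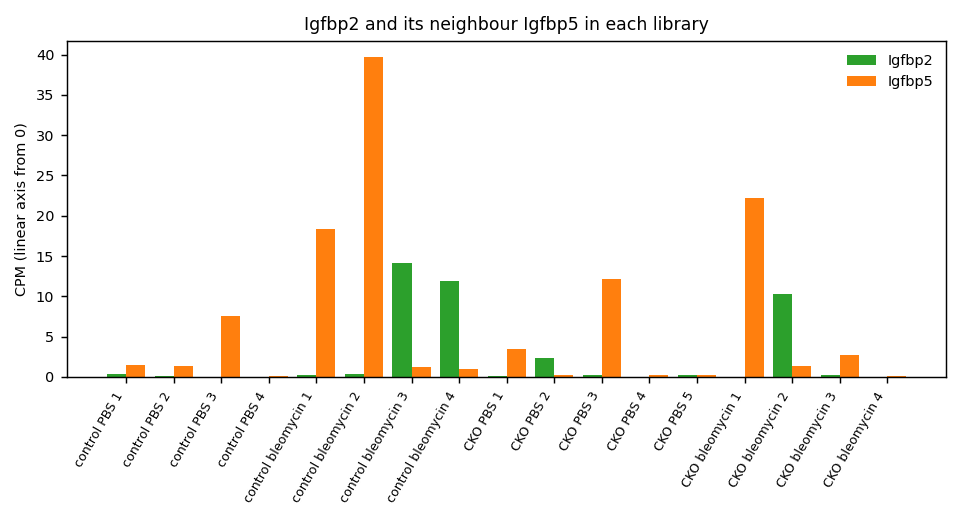
CPM of Igfbp2 and Igfbp5 in each of the 17 libraries, on a linear axis from 0. The tall bars of Igfbp2 (control bleomycin mice 3 and 4 and CKO bleomycin mouse 2) stand in other libraries than those of Igfbp5 (control bleomycin mice 1 and 2, CKO PBS mouse 3 and CKO bleomycin mouse 1).

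Fibroblast markers had log2 fold changes of the same sign as those of Igfbp2 to Igfbp7, both for bleomycin in controls and for CKO versus control after bleomycin. All 13 fibroblast markers kept had a positive log2 fold change for bleomycin in controls (median 2.49) and all 13 a negative one for CKO versus control after bleomycin (median -3.52), with a summed level of 7665 to 15101 CPM in control bleomycin, 30.1 to 8847 CPM in control PBS, 66.5 to 2225 CPM in CKO PBS and 49.9 to 2253 CPM in CKO bleomycin libraries. Control PBS mouse 3, the PBS library nearest the bleomycin-treated controls in Igfbp3, Igfbp4 and Igfbp6, had a score of 7.95, and CKO PBS mouse 3 and CKO bleomycin mouse 2, the next in Igfbp3 and Igfbp6 among CKO libraries, had scores of 5.97 and 6.76. Macrophage markers did not move one way as a whole. The 15 general ones were all negative for bleomycin in controls (median -0.86) and all positive for CKO versus control after bleomycin (median 1.20), and the 10 alveolar ones likewise (medians -3.04 and 2.82). Of the 10 interstitial ones, 9 were positive for bleomycin in controls (median 1.63), the sign of the fibroblast markers, and 7 were positive and 3 negative for CKO versus control after bleomycin (median 0.14). Smooth muscle and pericyte markers (6 of 10 kept) had medians of 3.65 and -2.53, with scores of 7.66 to 8.00 in control bleomycin libraries and of -0.34 to 6.81 in the others. With the fibroblast score as a covariate, the log2 fold change of CKO versus control after bleomycin was -0.81 for Igfbp3, -0.18 for Igfbp6, 0.08 for Igfbp7 and -0.42 for Igf1r, and with the macrophage score it was -1.12, -1.31, -0.19 and -0.33. The score was made from the same libraries and differs between the groups, so these fits describe the shared variation and do not test it.

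**Figure D4:**
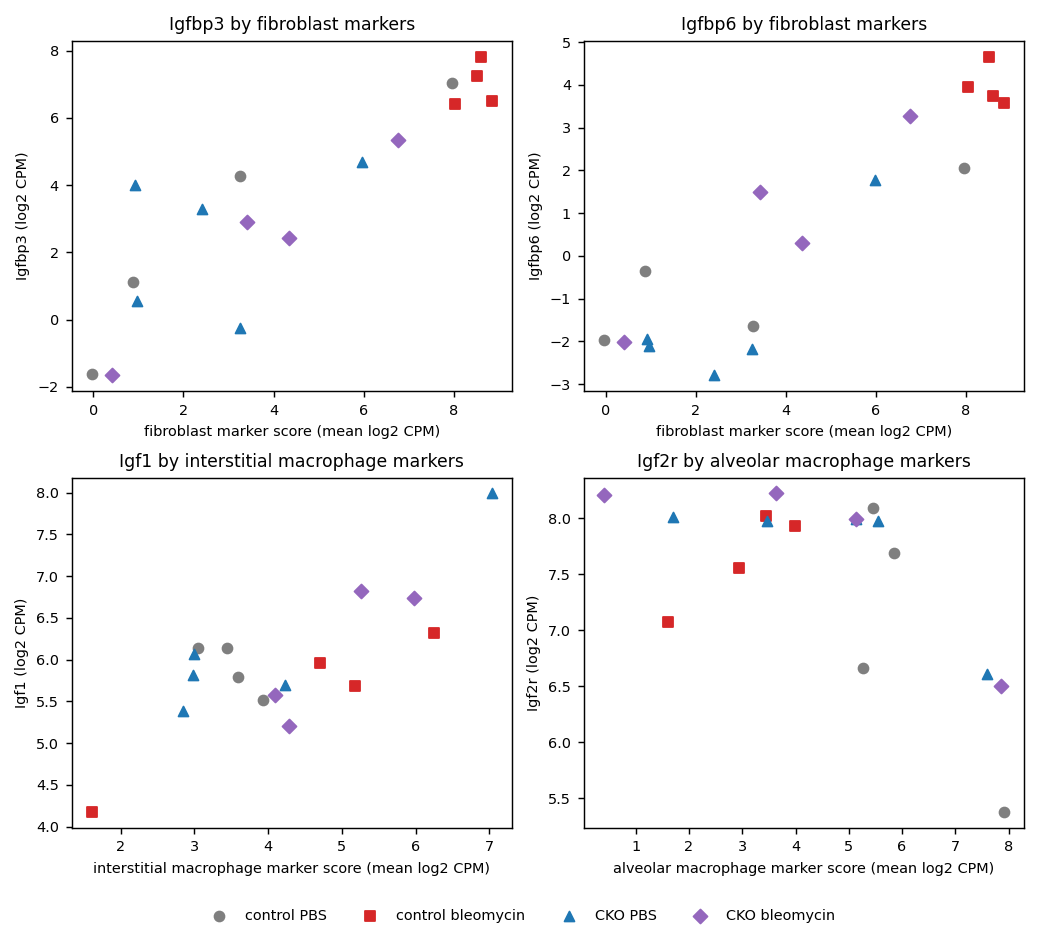
Log2 CPM of Igfbp3 and Igfbp6 against the fibroblast marker score, of Igf1 against the interstitial macrophage score and of Igf2r against the alveolar macrophage score, with 1 point per library and a symbol per group. The control bleomycin libraries sit together at fibroblast scores of 8.03 to 8.85, CKO PBS mouse 5 is at the top right of the Igf1 panel, and 3 of the 4 low Igf2r libraries are at alveolar macrophage scores of 7.59 to 7.92.

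Between Ephb4 CKO and control mice given PBS, the 9 genes had log2 fold changes from -1.85 (Igfbp3) to 2.16 (Igfbp2), 6 positive and 3 negative, with a median of 0.31. None passed an adjusted p (0% of all genes) or an unadjusted p of 0.05 (1.99% of all genes), and no group ranges were apart. Bleomycin versus PBS in Ephb4 CKO mice gave values from -0.78 to 2.16, again 6 positive and 3 negative, with none past an adjusted p (0% of all genes) or an unadjusted p of 0.05 (0.964% of all genes). The interaction of genotype and bleomycin, that is, whether the genotype difference differed between bleomycin and PBS, was negative for all 9 genes. Its median was -1.51, against -0.003 over all genes tested. This contrast holds the same control bleomycin libraries as the 2 main comparisons, so its signs are not independent of theirs. None of the 9 passed an adjusted p (0% of all genes) or an unadjusted p of 0.05 (3.46% of all genes). Every other tool and setting run also called 0 of the 9 in these 3 comparisons, and none called more than 1 of all genes tested. The genotype difference was therefore not shown to differ between the treatments for any of the 9.

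Other genes of the pathway were taken from lists of further ligands, receptors and binders, of proteases and regulators of binding proteins, and of receptor signalling. Igf2, the second ligand, was not kept and reached at most 3.93 CPM, and Igfbp1, Ins1 and Ins2 had no count in any library. Of the 4 of 11 further ligands, receptors and binders kept, the insulin receptor gene Insr had log2 fold changes of -0.32 (SE 0.27, adjusted p = 0.570) for bleomycin in controls and 0.39 (SE 0.27, adjusted p = 0.397) for CKO versus control after bleomycin. M6pr, the smaller mannose 6-phosphate receptor, had -0.86 (SE 0.32, adjusted p = 0.319) and 0.82 (SE 0.32, adjusted p = 0.219). Ghr, the growth hormone receptor gene, had 0.80 (SE 1.08, adjusted p = 0.732) and -1.90 (SE 1.11, adjusted p = 0.316). Lrp1, a large endocytic receptor gene, had 0.12 (SE 0.24, adjusted p = 0.818) and 0.37 (SE 0.24, adjusted p = 0.368). These 4 had medians of -0.10 and 0.38, and 1 of them, M6pr, passed an unadjusted p of 0.05 in each comparison, beside 14.3% and 20.2% of all genes.

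The list of proteases and regulators of binding proteins also held Igf2bp2, whose product binds RNA and belongs to neither class. Of this list, 8 of 12 genes were kept. Their median was 1.25 for bleomycin in controls (6 positive, 0 past an unadjusted p of 0.05 beside 14.3% of all genes). For CKO versus control after bleomycin it was -1.93 (7 negative, and 1 positive, Igf2bp2), with 3 past an unadjusted p of 0.05 beside 20.2% of all genes. Pappa, which encodes the protease that cleaves IGFBP4, was at 1.98 ± 2.38 CPM in CKO bleomycin and 74.9 ± 30.3 CPM in control bleomycin mice (SD, n = 4 each), a log2 fold change of -5.24 (SE 1.49, adjusted p = 0.196). Adam12, a metalloprotease gene, had -2.88 (SE 1.28, adjusted p = 0.233) and Htra1, a secreted serine protease gene, -1.93 (SE 0.81, adjusted p = 0.226). Stc2, which encodes a stanniocalcin that inhibits PAPP-A, had -3.02 (SE 1.61, adjusted p = 0.282). Pappa, Adam12, Htra1 and Stc2 were lower in every CKO bleomycin than in every control bleomycin library, 4 of 8 genes beside 12.2% of all genes, and none of the 8 passed an adjusted p of 0.05 in edgeR. Pappa and Stc2 had passed the filter through the 4 control bleomycin libraries and 1 control PBS library. For bleomycin in controls Htra1 had 1.62 (SE 0.80, adjusted p = 0.370), Pappa 2.31 (SE 1.31, adjusted p = 0.415) and Stc2 2.07 (SE 1.55, adjusted p = 0.525). Htra3, a relative of Htra1, had -0.15 (SE 1.03, adjusted p = 0.951), and Igf2bp2, which encodes an RNA-binding protein, -0.59 (SE 0.41, adjusted p = 0.498) for bleomycin in controls and 0.44 (SE 0.41, adjusted p = 0.516) for CKO versus control after bleomycin.

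Receptor signalling genes (26 of 27 kept) had medians of 0.07 for bleomycin in controls and -0.06 for CKO versus control after bleomycin, against -0.06 and 0.01 over all genes tested. In the latter 3 were past an unadjusted p of 0.05 with higher and 3 with lower values in CKO mice, 6 of 26 beside 20.2% of all genes, a share near that of all genes, and none passed an adjusted p. Pik3cb, a catalytic PI3K subunit gene, had 1.16 (SE 0.28, adjusted p = 0.187), the phosphatase gene Ptpn1 had 0.80 (SE 0.26, adjusted p = 0.208) and the adaptor gene Grb2 0.97 (SE 0.44, adjusted p = 0.239). With lower values were Pik3r2, a regulatory PI3K subunit gene, -0.57 (SE 0.19, adjusted p = 0.210), Irs1, the insulin receptor substrate, -2.64 (SE 1.12, adjusted p = 0.228), and the adaptor gene Grb10, -2.53 (SE 1.13, adjusted p = 0.235). Irs1 was at 22.1, 23.2, 37.1 and 48.2 CPM in control bleomycin mice and 3.58, 14.9, 2.12 and 0.381 CPM in CKO bleomycin mice. The groups were apart with lower values in CKO mice for 2 of the 26 genes, Irs1 and Grb10, beside 12.2% of all genes. They were apart with higher values for 2, Pik3cb and Ptpn1, beside 11% of all genes. Irs1 had passed the filter through the 4 control bleomycin libraries, 1 control PBS library and 1 CKO bleomycin library, so mainly through the group where it is high. Irs2, its close relative, had -0.30 (SE 0.44, adjusted p = 0.691) with overlapping groups. For bleomycin in controls, Pik3cb had -1.12 (SE 0.28, adjusted p = 0.268), Pik3r2 0.75 (SE 0.19, adjusted p = 0.268), Ptpn1 -0.61 (SE 0.26, adjusted p = 0.332) and Foxo1, a transcription factor gene whose product AKT holds in check, -0.54 (SE 0.21, adjusted p = 0.320). Ptpn11, which encodes the phosphatase SHP2, had 0.40 (SE 0.21, adjusted p = 0.383) and Irs1 1.98 (SE 1.10, adjusted p = 0.409) in that comparison. Foxo1 had passed the filter through 2 control PBS libraries and 1 CKO PBS library. It was thus kept through the group where it is high, and its value is a description only.

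The genes whose log2 CPM followed each of the 9 most closely over the 17 libraries are given as a description, since all points share libraries, depth and the mix of cells. For Igf1 they were Synj1, Tnfrsf11a and Srgap2 (Pearson's r of 0.90, 0.89 and 0.88). Igf2r was followed by Tmem144, Ahnak and Oxct1 (0.92, 0.92 and 0.91). Igf1r was followed by Zfp462, Ghr and Sox11 (0.97 each), and its closest partner among the 9 was Igfbp7 (0.94, and 0.93 after subtraction of group means). For Igfbp7 itself the closest were Tyro3, Six4 and Ube2e2 (0.98, 0.97 and 0.97). Igfbp3 went with Plod2, a collagen lysyl hydroxylase gene, Dbn1 and Ak1 (0.98 each), and Igfbp6 with Map1a, Mrgprf and Islr (0.95 each). Igfbp4 went with Angptl2, Nnmt and Lgi2 (0.93, 0.92 and 0.92), Igfbp5 with Bdkrb2, Igfbp4 and Stc1 (0.87, 0.85 and 0.84), and Igfbp2 with Hspa1b, Pdgfd and Kif1a (0.84, 0.83 and 0.83). The neighbours Igfbp2 and Igfbp5 had r = 0.01, and -0.23 after subtraction of group means.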

How the data were processed

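Total RNA-Seq was measured in cultures from 17 mice. The authors trimmed adapters with cutadapt (1.18 in the submitters' processing notes, another version in the study's methods), aligned reads to GRCm38 with HISAT2 2.1.0 and turned StringTie coverage into whole-number counts per gene with the script supplied with it, and these raw counts were deposited without normalization. Because such counts are worked out from coverage and the read length of 75 bp, they depend on how StringTie shares coverage between overlapping transcripts.

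Here, genes with a CPM above 10 in at least 2 libraries were kept (10481 of 55421). CPM was scaled by TMM to the counts of the kept genes, and log2 CPM used a prior count of 2. All 17 libraries were fitted with 1 mean per group in edgeR 4.0.16 (R 4.3.3), by the quasi-likelihood test, with p adjusted by Benjamini-Hochberg over all kept genes and a threshold of 0.05. The common dispersion was 0.311. The study's own design adds a batch number, which the labels do not give per library. Single genes were also compared with 2-sided exact permutation tests of mean log2 CPM (36 tests, scipy 1.17.1). Their p is printed for Igf1r, Igfbp3 and Igfbp7 only, without adjustment over the 9 genes. On simulated counts for the comparison of CKO with control mice after bleomycin, with the real dispersions and 10481 genes, edgeR called 69% of 200 genes changed by a log2 fold change of 2 and 82.5% of 200 changed by 3. The changed genes were drawn at random, with no difference in the mix of cells between libraries. These shares are therefore not the chance of calling a change in any of the 9 genes.

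Total counts per library ranged from 66540022 to 120554468 (median 93075927). No 2 libraries held identical values. Replicate numbers were given in accession order and pair no mice. Gene positions come from GENCODE M21 (GRCm38), and promoter sequences from RefSeq on GRCm38.p6, where all 9 genes matched (10 entries). Exon length is the union of annotated exons.

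The 9 genes, the pathway and marker lists and the tests were chosen with earlier results of these data known. Named beyond the 9 were the 3 pathway genes per list with the smallest p in each direction in both main comparisons, Igf2, Insr, Irs1 and Irs2, the 3 genes most correlated with each of the 9, Ephb4 and the defining markers. Stc2 in the second comparison and the unexpressed genes Igfbp1, Ins1 and Ins2 were named after their values were seen. Alternatives were DESeq2 1.42.0 with and without the column runs, limma voom 3.58.1 with and without sample quality weights, RLE and upper quartile scaling, 2 other filters, only the groups compared, sex, column run, fibroblast score or macrophage score as a covariate, another prior count, the libraries without the sex-discordant 3, and each mouse left out in turn. Fits within each column run, and all alternatives to the counts of genes apart, were added after the data were seen.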

Additional observations from a re-analysis of the deposited data

Results flagged for a closer look

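Among 36 sets of libraries (9 genes in 4 groups), 10 held 1 library far from the others of its group by Dixon's criterion. For normally distributed values chance meets it in about 1 of 20 sets. It was applied here to CPM without logarithms, and every flagged library except that of Igf2r was the highest of its group. That rate therefore cannot be taken to hold, and the count is no measure of an excess. Several came from the same library or the same gene, so the sets are not independent.

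CKO PBS mouse 5 had 254 CPM of Igf1, where the other CKO PBS libraries had 41.7 to 67 CPM. CKO PBS mouse 3 stood apart in 3 genes, with 98.0 CPM of Igf2r below 251 to 259 CPM in the others, 12.2 CPM of Igfbp5 above 0.179 to 3.51 CPM, and 3.38 CPM of Igfbp6 above 0.124 to 0.241 CPM. Control PBS mouse 3 had 132 CPM of Igfbp3, above 0.304 to 19.2 CPM in the other control PBS libraries, and 4.13 CPM of Igfbp6, above 0.233 to 0.764 CPM. Control bleomycin mouse 1 had 596 CPM of Igfbp7, where the other control bleomycin libraries had 284 to 291 CPM.

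Igfbp2 was at 10.3 CPM in CKO bleomycin mouse 2 and at 0 to 0.199 CPM in the other CKO bleomycin libraries, and at 2.32 CPM in CKO PBS mouse 2 and 0 to 0.265 CPM in the other CKO PBS libraries. Igfbp5 was at 22.1 CPM in CKO bleomycin mouse 1 and at 0.119 to 2.68 CPM in the other CKO bleomycin libraries.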

How the results depend on the processing

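Of 306 alternative values for the 9 genes in each main comparison, 295 (bleomycin in controls) and 288 (CKO versus control after bleomycin) kept their direction and their side of the threshold. DESeq2 with the column runs called 1 gene of the 9, Igfbp6, for bleomycin in controls, beside 231 of all 10481 genes. Weighted voom called 3 of the 9 for CKO versus control after bleomycin, beside 4651 of all 10481 genes. Counts of genes whose groups were apart were 4 and 3 for bleomycin in controls within the first and second column run, 1 to 3 with a library left out, and 7 for CKO versus control after bleomycin within the first run. No share of all genes is given beside these counts. Directions changed as follows. For bleomycin in controls, the fibroblast score as a covariate gave -0.076 for Igf1r, -0.39 for Igfbp3, -0.32 for Igfbp4, -1.28 for Igfbp5 and -0.63 for Igfbp7, the macrophage score 0.29 for Igf1, weighted voom -0.12 for Igfbp5, the first column run 0.29 for Igf1 and the second -0.24 for Igf2r. With a library left out, Igf1 ranged from -0.46 to 0.13. For CKO versus control after bleomycin, the fibroblast score gave -0.17 for Igf2r, 0.83 for Igfbp4, 2.30 for Igfbp5 and 0.083 for Igfbp7, the macrophage score -0.22 for Igf1 and -0.20 for Igf2r, recorded sex 0.91 for Igfbp2, and weighted voom 0.013 for Igfbp4 and 2.52 for Igfbp5. Without the sex-discordant libraries Igf1 was -0.091 and Igf2r -0.34. The first run gave -0.75 for Igf1 and -0.33 for Igf2r, and the second 0.017 for Igfbp4 and 0.23 for Igfbp5. The cause of these changes was not tested. No paired analysis was possible because the replicate numbers were given in accession order and mark no shared litter, batch or day. Depth did not limit the abundant genes, whereas Igfbp2 and Igfbp6 rested on few counts in most PBS libraries (0 to 135 and 10 to 394), and groups of 4 cannot give an exact p below 0.0286.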
